A study of Mus musculus with 12 samples.

Results

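Transcripts of 10 genes of glycolysis were followed through RNA sequencing of 12 libraries from mouse embryonic stem cells, namely Hk1, Hk2, Gpi1, Pfkl, Pfkp, Aldoa, Pgk1, Eno1, Pkm and Ldha. They were taken by name out of 43346 gene IDs in the deposited table, and 10 of 10 were among the 17148 genes that passed the filter on low counts. Cells came from 4 groups with 3 libraries each. B6 is the inbred strain C57BL/6J and D2 is the inbred strain DBA/2J. B6-13D2, with the genotype B6.D2-(rs30079041-rs51756099)/Bakr, carries a D2 segment of chromosome 13 on the B6 background. D2-13B6 is the reciprocal congenic line with a B6 segment on the D2 background, and its genotype reads D2.B6-(rs29224292-rs13469455)/Bakr in the sample labels and D2.B6-(rs29224292-rs51756099)/Bakr in the series text. No group received a treatment that the others lacked. All cells grew in high-glucose medium with 15% serum, LIF, 1 µM PD0325901 (a MEK inhibitor), 3 µM CHIR99021 (a GSK3 inhibitor), 2 mM GlutaMAX and 1 mM pyruvate.

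Each strain was a single cell line by the protocol, so a strain and its line cannot be told apart. The line names disagree in places, since B6 replicate 3 carries the line name B6 4-1 and B6 replicates 1 and 2 carry B6 5-1, and D2 is D2 2-9 in titles and D2 5-5 in another field. Libraries are called technical replicates in titles and independent cultures in the protocol, so p-values measure the spread between these libraries, which may be technical. Libraries held 22184196 to 36411799 expected counts. Column names of the congenic libraries carry a prefix that the parental ones lack, and whatever it marks cannot be told apart from the type of line, congenic or parental.

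Glycolysis splits glucose into pyruvate. Hexokinases trap glucose in the cell as glucose 6-phosphate, phosphofructokinases carry out the committed step, and the lower enzymes harvest ATP and NADH. Lactate dehydrogenase turns pyruvate into lactate and so regenerates NAD+. Mouse embryonic stem cells are known for a high glycolytic flux, and many of these genes are textbook targets of the hypoxia-inducible factors, which bind a short core sequence in their promoters.

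The promoters of the enzymes are shown for 4 members whose levels are central below, because the hypoxia core recurs near many of their start sites. Each window runs from 250 bases before to 50 after a RefSeq start site in GRCm38.p6, in the 5′ to 3′ direction of the gene, and capitals mark ACGTG or GCGTG on either strand. The Hk2 window, with 2 matches, is chr6:82774405-82774704 on the minus strand. The Pfkp window, with 4, is chr13:6648722-6649021 on the minus strand. The Pgk1 window, with 2, is chrX:106186850-106187149 on the plus strand. The Gpi1 window, at chr7:34230287-34230586 on the minus strand, held none and is shown for contrast.
Hk2: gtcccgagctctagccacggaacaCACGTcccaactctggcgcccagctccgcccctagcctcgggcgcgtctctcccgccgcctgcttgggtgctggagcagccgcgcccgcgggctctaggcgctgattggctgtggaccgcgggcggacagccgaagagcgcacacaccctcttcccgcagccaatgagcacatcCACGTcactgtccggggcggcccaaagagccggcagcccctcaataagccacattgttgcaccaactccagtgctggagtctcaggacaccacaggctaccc
Pfkp: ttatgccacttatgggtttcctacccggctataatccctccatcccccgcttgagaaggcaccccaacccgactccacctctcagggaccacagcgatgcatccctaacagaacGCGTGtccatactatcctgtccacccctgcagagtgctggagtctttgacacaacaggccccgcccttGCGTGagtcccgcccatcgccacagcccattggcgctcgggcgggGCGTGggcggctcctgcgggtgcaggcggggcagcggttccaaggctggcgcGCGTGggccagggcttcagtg
Pgk1: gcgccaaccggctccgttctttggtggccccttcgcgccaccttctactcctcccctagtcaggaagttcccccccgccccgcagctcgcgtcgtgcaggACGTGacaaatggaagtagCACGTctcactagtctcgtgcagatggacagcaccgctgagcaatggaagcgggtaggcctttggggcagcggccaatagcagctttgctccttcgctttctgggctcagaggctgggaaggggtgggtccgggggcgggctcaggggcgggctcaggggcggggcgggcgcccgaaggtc
Gpi1: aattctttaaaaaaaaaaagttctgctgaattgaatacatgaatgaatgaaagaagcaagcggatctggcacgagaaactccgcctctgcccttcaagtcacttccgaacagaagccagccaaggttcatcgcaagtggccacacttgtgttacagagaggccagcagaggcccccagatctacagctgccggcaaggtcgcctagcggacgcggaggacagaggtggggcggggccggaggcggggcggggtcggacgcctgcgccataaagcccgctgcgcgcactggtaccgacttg

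RefSeq promoter windows were found for 10 of 10 members, 17 windows in all, and 13 of the 17 held at least 1 core, covering 9 members. The windows are not all separate, since 2 Aldoa windows overlap and hold the same site, and 2 Eno1 windows overlap and hold the same 2 sites, so these counts include some sites more than once. Ldha had 7 matches in 1 window and Hk1 had 5. The same letters occurred in 43.8% of all 32851 windows of this length. The letters overlap with the E-box CACGTG, which reads the same on both strands and counts as 2 matches. Members' windows were richer in G and C, with a median of 64.7% against 52.7% over all windows. Among windows of at least 60% G and C, 11 of 12 members' windows and 69.2% of all windows held the core. A match is a description of letters and no sign of a bound factor, and none of the measurements here bears on binding.

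Across the 4 groups, B6-13D2 had the highest mean of all 10 members. The members together made up 1.35% to 1.37% of all expected counts in the B6-13D2 libraries, 1.06% to 1.11% in B6, 1.08% to 1.10% in D2-13B6 and 0.970% to 1.00% in D2. B6 and D2-13B6 overlapped on this measure, and the D2 and B6-13D2 libraries stood below and above both. As a sum of TMM-scaled CPM, B6 (11004 to 11692) and D2-13B6 (10473 to 10607) did not overlap. The ratio of the highest to the lowest group mean was widest for a hexokinase (2.44 for Hk2) and a phosphofructokinase (1.94 for Pfkp). It was narrowest for 2 enzymes of the lower pathway, at 1.22 for Pkm and 1.19 for Eno1. Pgk1, also of the lower pathway, had 1.80, beside 1.80 for Hk1 and 1.67 for Pfkl.

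Per kilobase of exon, the enzymes of the lower steps were far more abundant than those of the first steps. The means over groups, in CPM (library-scaled counts) per kilobase, were 669 for Pkm, 548 for Eno1, 533 for Aldoa, 355 for Pgk1 and 335 for Ldha. Gpi1 had 104 on the same scale. Hk2 had 49.4, Pfkl 35.6, Pfkp 18.2 and Hk1 15.4. The hexokinases and phosphofructokinases were thus the least abundant of the 10 transcripts per kilobase and included those that varied most in proportion.

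**Figure D1:**
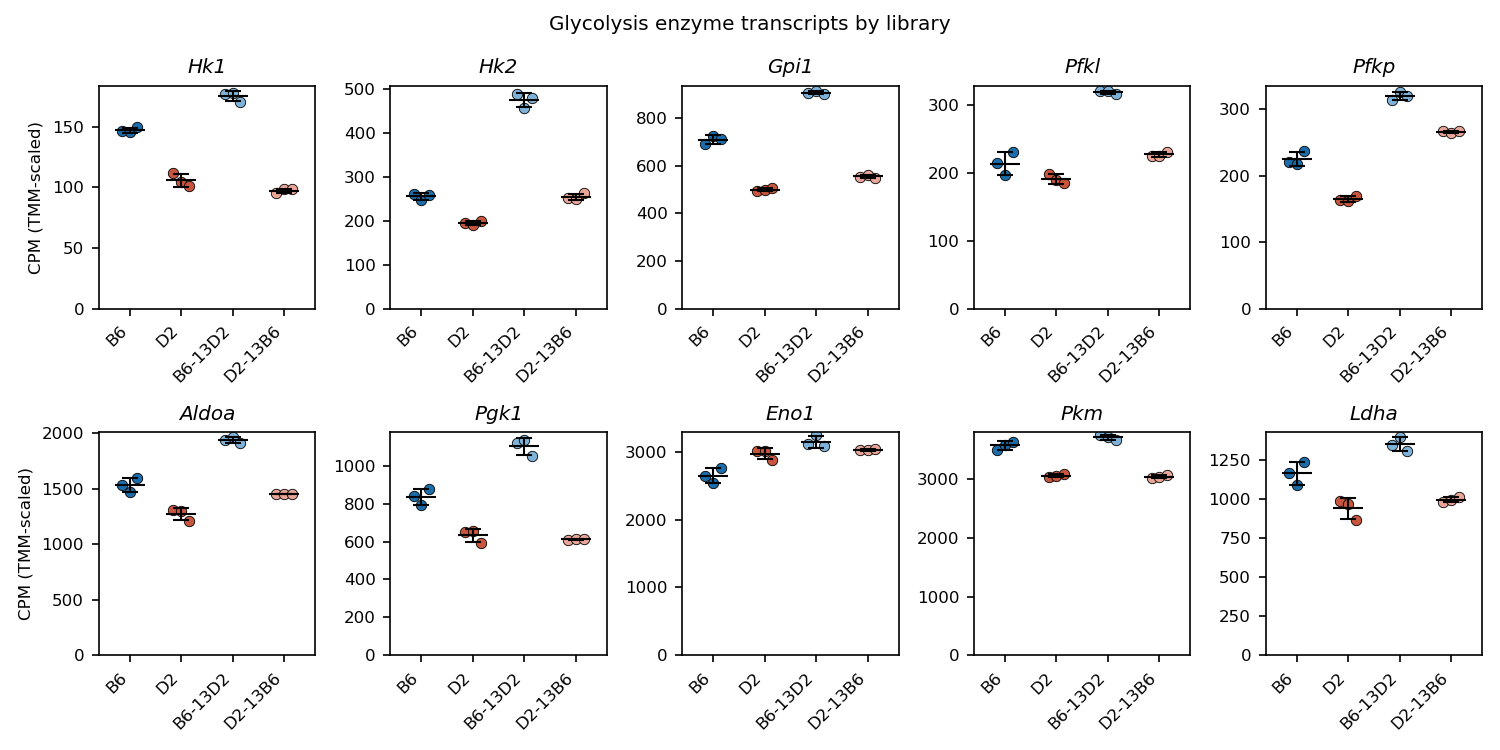
CPM, on TMM-scaled library sizes, of the 10 glycolysis genes in each library, with a panel per gene and the 4 groups on the x axis. Circles are libraries, and horizontal marks with bars are the mean and SD of 3 libraries. The B6-13D2 mean is the highest in every panel.

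Hk2, the hexokinase that is induced in growing and hypoxic cells and binds to mitochondria, showed the widest range of the members. It lies on chromosome 6 (82725025 to 82774454, GRCm38, minus strand). Its CPM were 262, 247 and 258 in B6 and 194, 190.2 and 199 in D2. They were 489, 457 and 479 in B6-13D2 and 251, 249 and 263 in D2-13B6. The B6-13D2 libraries were all above every other library, the D2 libraries below every other, and B6 overlapped with D2-13B6. Hk2 was 1.86 times as high in B6-13D2 as in B6 (0.89 on the log2 scale, SE 0.0369, edgeR adjusted p = 6.05e-13). It was 1.31 times as high in D2-13B6 as in D2 (0.39, SE 0.0371, adjusted p = 7.46e-08). Between the parental strains it was lower in D2 (-0.39, SE 0.0374, adjusted p = 7.13e-08).

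Hk1, the hexokinase regarded as constitutive, lies on chromosome 10 (62268855 to 62379908). Its CPM were 146, 146 and 149.6 in B6, 112, 105 and 101 in D2, 177, 178 and 171 in B6-13D2, and 95.3, 98.3 and 98.3 in D2-13B6. No library of one group overlapped with its neighbours in this order. Hk1 rose by 0.25 in B6-13D2 over B6 on the log2 scale (SE 0.0373, edgeR adjusted p = 1.44e-05). It fell by 0.12 in D2-13B6 relative to D2 (SE 0.0383, adjusted p = 0.0104). That last call was lost without D2 replicate 1 (-0.072) and without D2-13B6 replicate 1 (-0.11). Hk1 was the only member called lower in that comparison.

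Gpi1, which interconverts glucose 6-phosphate and fructose 6-phosphate, lies on chromosome 7 (34201330 to 34230336). It had CPM of 689.8, 726 and 715 in B6 and of 495, 499 and 506 in D2. In the congenic lines it had 905, 914 and 902 (B6-13D2) and 555, 563 and 550.1 (D2-13B6). The 4 groups did not overlap. It was 1.28 times as high in B6-13D2 as in B6 (log2 0.35, SE 0.0298, edgeR adjusted p = 1.24e-08), and 1.11 times as high in D2-13B6 as in D2 (0.15, SE 0.0299, adjusted p = 0.000289). Its drop in D2 relative to B6 had the smallest adjusted p of the members in that comparison (-0.51, SE 0.0300, adjusted p = 1.71e-10).

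Phosphofructokinase, which commits sugar to glycolysis, is a tetramer built from liver (Pfkl), platelet (Pfkp) and muscle (Pfkm) subunits. Pfkp is the single member on chromosome 13 (6579768 to 6648777, minus strand). The ends of the congenic segments are named by markers whose positions were not given in the sources used here, so whether Pfkp lies inside them was not determined. Its CPM were 221, 217 and 236 in B6, 163, 162 and 169.8 in D2, 314, 326 and 319 in B6-13D2, and 267, 263 and 266 in D2-13B6. The groups did not overlap, and both congenic lines were above both parental strains. Pfkp rose by 0.51 in B6-13D2 over B6 (SE 0.0359, edgeR adjusted p = 1.07e-09) and by 0.69 in D2-13B6 over D2 (SE 0.0362, adjusted p = 3.15e-11), both on the log2 scale. It was lower in D2 than in B6 (-0.45, SE 0.0366, adjusted p = 1.11e-08). Pfkp therefore did not follow the allele of the segment in 1 direction on both backgrounds: D2 alleles came with a higher level on the B6 background and with a lower one on the D2 background.

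Pfkp shares 748 bases at its 3′ end with Pitrm1, a mitochondrial peptidase gene on the other strand, and the use of strand in counting is not given in the sources used here. Pitrm1 had 39.5% as many counts as Pfkp. Its log2 fold change was -0.26 in D2 versus B6 (adjusted p = 2.33e-05), -0.046 in B6-13D2 versus B6 (adjusted p = 0.343) and 0.021 in D2-13B6 versus D2 (adjusted p = 0.687). Pitrm1 was called in both comparisons across backgrounds, higher in B6-13D2 than in D2 (0.22, adjusted p = 9.58e-05) and lower in D2-13B6 than in B6 (-0.24, adjusted p = 4.82e-05). How far its reads enter the Pfkp counts was not tested. Within 2 Mb of Pfkp, 4 other genes were tested. Of these, 3 were called higher and 1 lower in D2 versus B6, and 1 higher and 2 lower in B6-13D2 versus B6. In D2-13B6 versus D2, 1 of the 4 was called lower by edgeR and the others were not called, with log2 fold changes from -0.83 (Klf6, a zinc finger transcription factor) to 0.14 (Adarb2). The median over 637 other tested genes of chromosome 13 was -0.15 in that comparison.

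Pfkl, on chromosome 10 (77986947 to 78010083), had CPM of 214, 196 and 231 in B6 and 198, 189.8 and 185 in D2. It had 319.9, 320.2 and 316 in B6-13D2 and 225, 225 and 231 in D2-13B6. B6 overlapped with both D2 and D2-13B6, while the B6-13D2 libraries stood well above. It was 1.49 times as high in B6-13D2 as in B6 (log2 0.58, SE 0.0457, edgeR adjusted p = 5.31e-09) and 1.19 times as high in D2-13B6 as in D2 (0.25, SE 0.0458, adjusted p = 0.000146). The difference between D2 and B6 was -0.16 (SE 0.0463, adjusted p = 0.00568), and it was not called with RLE size factors (-0.11, adjusted p = 0.0514).

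Aldoa, the main aldolase of most tissues, lies on chromosome 7 (126795234 to 126800751). It had CPM of 1538, 1472 and 1599 in B6, 1307, 1298 and 1209 in D2, 1940.2, 1969.6 and 1914 in B6-13D2, and 1457, 1457 and 1455 in D2-13B6. The groups kept apart, although B6 replicate 2 and the D2-13B6 libraries lay close together. Aldoa rose by 0.34 in B6-13D2 over B6 (SE 0.0359, edgeR adjusted p = 2.49e-07) and by 0.20 in D2-13B6 over D2 (SE 0.0359, adjusted p = 0.000147) on the log2 scale.

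Pgk1, the X-linked phosphoglycerate kinase that makes the first ATP of the pathway, lies on chromosome X (106187100 to 106203699). Its CPM were 841, 794 and 876 in B6, 652, 655 and 593 in D2, 1119.9, 1137 and 1050.2 in B6-13D2, and 608, 612 and 616 in D2-13B6. D2 and D2-13B6 overlapped, and the other groups were separate. It was 1.32 times as high in B6-13D2 as in B6 (log2 0.40, SE 0.0436, edgeR adjusted p = 3.82e-07). In D2-13B6 versus D2 the difference of -0.050 (SE 0.0437) was not called (adjusted p = 0.348), though it was without D2 replicate 3 (-0.099).

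Eno1, the enolase of most tissues, lies on chromosome 4 (150236721 to 150248879) and was the one member that was higher in D2 than in B6. Its CPM were 2646, 2532 and 2758 in B6, 3017, 3016 and 2878 in D2, 3106, 3247 and 3086 in B6-13D2, and 3025, 3019.7 and 3041 in D2-13B6. B6 was the lowest group, and the other 3 groups lay within 1.06 times of each other. Eno1 was higher in D2 than in B6 (log2 0.17, SE 0.0343, edgeR adjusted p = 0.000420) and higher in B6-13D2 than in B6 (0.25, SE 0.0343, adjusted p = 5.85e-06). D2-13B6 and D2 differed by 0.028 (SE 0.0342, adjusted p = 0.508).

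Pkm, the pyruvate kinase gene of proliferating cells and muscle, lies on chromosome 9 (59656368 to 59679375). It was the most abundant member by CPM and per kilobase, with CPM of 3497, 3588 and 3636 in B6 and 3038, 3048 and 3094 in D2. It had 3753, 3719 and 3664 in B6-13D2 and 3014, 3044 and 3072 in D2-13B6. The levels split by background: libraries on the B6 background were all above those on the D2 background. D2 was lower than B6 by 0.22 on the log2 scale (SE 0.0273, edgeR adjusted p = 1.55e-06). B6-13D2 versus B6 gave 0.055 (SE 0.0272, adjusted p = 0.0941), with no overlap of libraries, and D2-13B6 versus D2 gave -0.0080 (SE 0.0272, adjusted p = 0.825). The first of these was called under RLE size factors (0.12), DESeq2 (0.12), a minimum mean CPM of 1 (0.093), a fit of only the groups compared (0.091), without B6 replicate 3 (0.069) and without D2 replicate 1 (0.071).

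Ldha, the lactate dehydrogenase subunit that favours lactate production, lies on chromosome 7 (46841475 to 46855627). It had CPM of 1163, 1087 and 1234 in B6, 983, 968 and 863 in D2, 1343, 1396 and 1305 in B6-13D2, and 977, 993 and 1013 in D2-13B6. D2 and D2-13B6 overlapped. It rose by 0.21 in B6-13D2 over B6 on the log2 scale (SE 0.0489, edgeR adjusted p = 0.00106). D2 was lower than B6 by 0.31 (SE 0.0490, adjusted p = 3.33e-05), and D2-13B6 versus D2 gave 0.083 (SE 0.0490, adjusted p = 0.157). This last difference was called with no filter (0.10) and without D2 replicate 1 (0.13).

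Counts were whole to within 1e-06 in every library for Hk2, Pfkl, Aldoa and Pkm. They were not for Hk1, Gpi1, Pfkp, Pgk1, Eno1 and Ldha, where the largest distance from a whole number ran from 0.000177 of a read (Ldha) to 0.497 (Pgk1). Besides Pitrm1, overlapping genes with counts held at most 0.402% as many counts as the member they overlap.

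Set side by side, the comparison of the parental strains had 9 members lower and 1 (Eno1) higher in D2. Over all tested genes, 30.3% were called lower and 29.8% higher. The median log2 fold change of the members was -0.35, against 0.012 over all genes tested. In B6-13D2 versus B6, 9 members were higher and Pkm was not called, where 25.4% of all genes were higher and 32.9% lower. The median was 0.35 for the members and -0.035 for all genes. In D2-13B6 versus D2, 5 members (Hk2, Gpi1, Pfkl, Pfkp and Aldoa) were higher, Hk1 was lower, and 4 were not called, where 27.6% of all genes were higher and 29.7% lower. The medians were 0.12 and 0. The split over all genes turned with the scaling in the comparisons with B6. In D2 it was 5107 higher and 5188 lower here but 5834 and 4448 under RLE size factors, and in B6-13D2 it was 4354 and 5649 here but 5340 and 4935 under RLE size factors. In D2-13B6 versus D2 it moved with the filter, from 4729 higher and 5092 lower here to 5119 and 4954 with no filter. Under a minimum mean CPM of 1 it was 3872 and 5310. These comparisons share libraries, so they are not independent of each other.

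**Figure D2:**
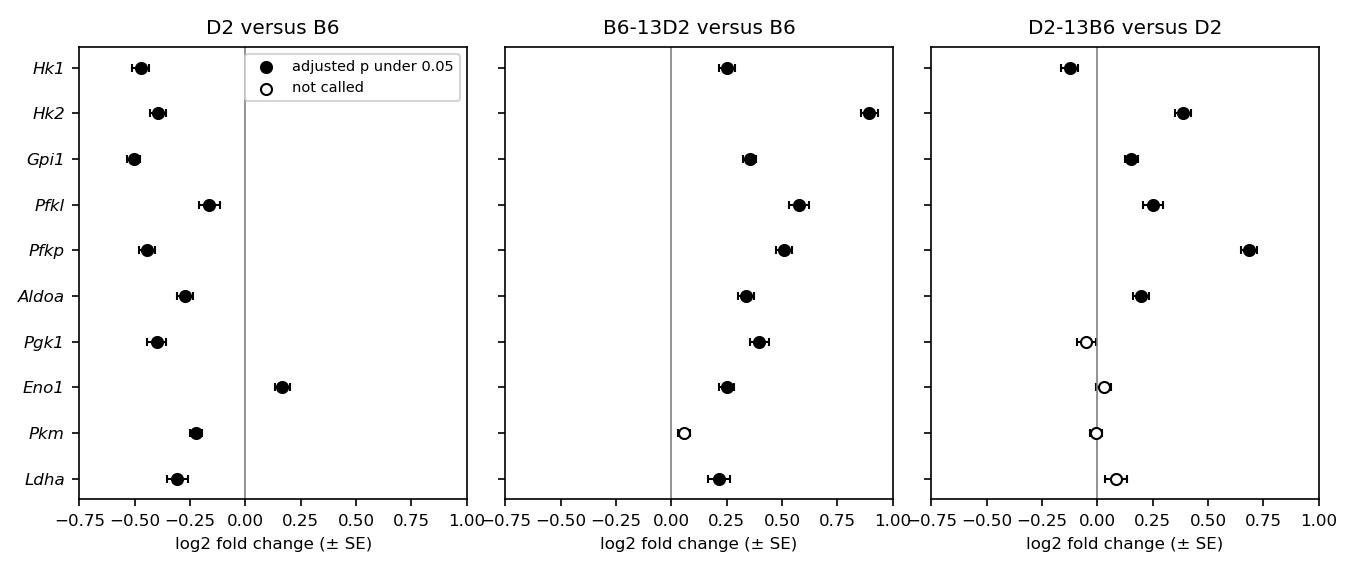
Log2 fold changes (x axis) of the 10 genes in 3 comparisons, with bars of 1 SE from the edgeR fit. Filled circles were called at an adjusted p under 0.05 and open circles were not: 10 of 10 were called in D2 versus B6, 9 in B6-13D2 versus B6 and 6 in D2-13B6 versus D2.

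Lines that share a segment allele but differ in background were also compared. The segments of the congenic lines are named by different markers, so they may not cover the same stretch, here and in the contrasts below. B6-13D2 was higher than D2 in 10 of 10 members, from 0.083 (Eno1) to 1.29 (Hk2) on the log2 scale, with 36.7% of all genes higher and 38% lower. The Eno1 call (edgeR adjusted p = 0.0362) was lost with a minimum mean CPM of 1 (0.071), in a fit of only these groups (0.080), without D2 replicate 3 (0.061) and without B6-13D2 replicate 2 (0.064). In D2-13B6 versus B6, Pfkp (0.24) and Eno1 (0.20) were higher. Hk1 (-0.60), Pgk1 (-0.45), Gpi1 (-0.35), Pkm (-0.23) and Ldha (-0.22) were lower. Hk2, Pfkl and Aldoa were not called, with edgeR adjusted p of 0.888, 0.112 and 0.0747. Pfkl (0.087) was called in that comparison with RLE size factors (0.14), DESeq2 (0.14), no filter (0.11), only the groups compared (0.15) and without B6 replicate 3 (0.14). Aldoa (-0.077) was called without B6 replicate 2 (-0.11) and without D2 replicate 3 (-0.080). Of all genes, 24.5% were called higher and 34.6% lower in that comparison. That is 4195 higher and 5925 lower, which moved to 4853 and 4999 under RLE size factors and turned in a fit of only these groups (5003 and 4854).

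Averaged over both backgrounds, libraries with the D2 allele of the segment had higher levels of 7 members and a lower level of Pfkp, while Pkm and Ldha were not called. This average covers opposite directions for Hk2, Gpi1, Pfkl, Aldoa and Pfkp. For them the D2 allele came with a higher level on the B6 background and a lower one on the D2 background. Hk2, for example, rose by 0.89 in B6-13D2 over B6 and by 0.39 in D2-13B6 over D2 on the log2 scale. In the averaged contrast, 16.5% of all genes were called higher and 27.3% lower. That split moved with the processing, since 37.7% of the called genes were higher here, 47.7% under RLE size factors, 48.3% under DESeq2 and 50.9% under a minimum mean CPM of 1. The differences were small, from 0.071 for Aldoa to 0.25 for Hk2 on the log2 scale, and -0.089 for Pfkp (edgeR adjusted p = 0.00888). The Pfkp call was lost under RLE size factors (-0.058), DESeq2 (-0.058) and a minimum mean CPM of 1 (-0.050). The Aldoa call (adjusted p = 0.0309) was lost without B6 replicate 2, D2 replicate 1, D2 replicate 2, B6-13D2 replicate 2 or any of the D2-13B6 libraries. Pkm (0.031) and Ldha (0.066) were called with RLE size factors (0.062 and 0.097), DESeq2 (0.062 and 0.097) and a minimum mean CPM of 1 (0.070 and 0.10). Ldha was also called with no filter (0.065), without B6 replicate 3 (0.091) and without D2 replicate 3 (0.097).

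How far the segment effect differs between backgrounds equals, on the log2 scale, what the congenic lines have beyond the parental strains. It therefore cannot distinguish a segment effect that depends on the background from anything that the congenic libraries share. In this contrast 9 members were higher and Pkm (0.047, edgeR adjusted p = 0.298) was called only with RLE size factors (0.11) and DESeq2 (0.11), where 31.1% of all genes were higher and 33.4% lower. That is 5325 higher and 5734 lower, and the split turned under RLE size factors (5931 and 5280), DESeq2 (5638 and 5030) and no filter (5820 and 5686). The largest values were 1.28 for Hk2 (SE 0.0523) and 1.20 for Pfkp (SE 0.0510), and the smallest called was 0.13 for Hk1 (SE 0.0535, adjusted p = 0.0448). The Hk1 call was lost with the replicate block (adjusted p = 0.0543) and without any one of 8 libraries.

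Isoenzymes were compared as ratios within a library, which need no scaling between libraries. Hk2 made up 71.3% ± 0.552 (SD, n = 3) of the hexokinase transcripts per kilobase (Hk1 and Hk2) in B6 and 72.4% ± 1.22 in D2. It made up 79.5% ± 0.808 in B6-13D2 and 78.9% ± 0.474 in D2-13B6. The congenic libraries, from 78.4% to 80.1%, did not overlap with the parental ones, from 70.8% to 73.7%. Averaged over backgrounds, the log2 ratio of Hk2 to Hk1 differed by 0.067 between segment alleles (two-sided exact permutation test within background, p = 0.640, adjusted p = 0.711 over 10 ratio tests). The 2 backgrounds moved in opposite directions, by 0.64 on B6 and by -0.51 on D2.

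Per kilobase of exon, Pfkp was below Pfkl in all groups. This order rests on the exon lengths of 13401 bases for Pfkp and 6675 for Pfkl, since by CPM Pfkp was above Pfkl in 3 of the 4 groups. Per kilobase, Pfkp made up 24.0% ± 0.709 (SD, n = 3) of the 3 subunit transcripts in B6, 24.2% ± 0.945 in D2, then 26.4% ± 0.499 in B6-13D2 and 29.9% ± 0.493 in D2-13B6. D2-13B6 thus had the highest share, above all other libraries. The log2 ratio of Pfkp to Pfkl was lower with the D2 allele of the segment, by 0.069 on the B6 background and by 0.44 on the D2 background (mean -0.25, two-sided exact permutation test, p = 0.005, the smallest that 400 assignments can give, adjusted p = 0.0125). Pfkm was 30.4% ± 1.04 of the 3 transcripts in B6 and 18.6% to 20.6% by group mean in the others. Its log2 ratio to Pfkl differed both by segment allele (-0.41, exact permutation adjusted p = 0.0250) and by background (-0.52, exact permutation adjusted p = 0.0125). The allele difference was -0.77 on the B6 background and -0.062 on the D2 background.

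Ldhb, the lactate dehydrogenase subunit that favours pyruvate production, split by background more than Ldha did. It made up 23.0% ± 0.791 (SD, n = 3) of the Ldha and Ldhb transcripts per kilobase in B6 and 23.9% ± 0.334 in B6-13D2. In D2 its share was 14.6% ± 0.970, and in D2-13B6 it was 9.23% ± 0.227. The log2 ratio of Ldhb to Ldha was lower on the D2 background by 1.22 on average (mean -1.22, two-sided exact permutation test, p = 0.005, the smallest possible, adjusted p = 0.0125). It was higher with the D2 allele of the segment (0.41, exact permutation adjusted p = 0.0125), by 0.076 on the B6 background and by 0.74 on the D2 background. Aldoc, the brain aldolase, was rare beside Aldoa at 0.463% to 1.45% of the 2 transcripts by group mean, with its highest share in B6-13D2. Its log2 ratio to Aldoa differed by background (-0.87, exact permutation adjusted p = 0.0200), with -1.66 between the lines with the D2 segment and -0.068 between those with the B6 segment. The difference by segment allele (0.59) did not pass (exact permutation adjusted p = 0.143).

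**Figure D3:**
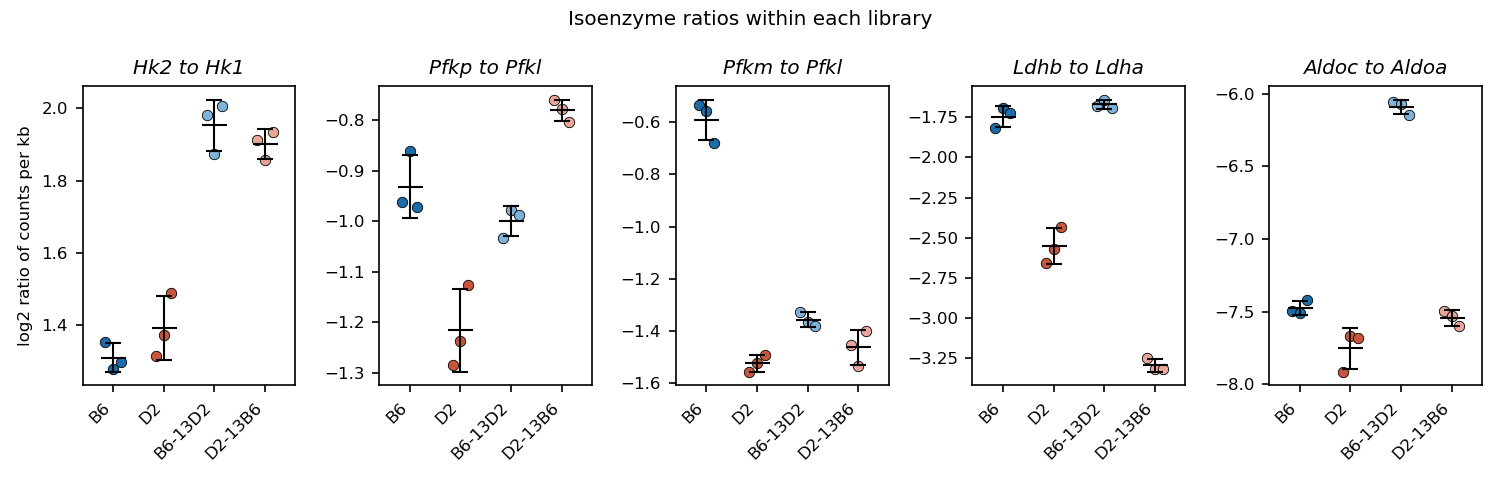
Log2 ratios of counts per kilobase of isoenzyme genes within each library (y axis, with its own range in each panel), for the 4 groups on the x axis. Circles are libraries, and marks with bars are the mean and SD of 3. The congenic groups are high for Hk2 to Hk1, and D2-13B6 is highest for Pfkp to Pfkl and lowest for Ldhb to Ldha.

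Of 20 other glycolysis enzymes, 15 were tested. In B6-13D2 versus B6, 9 were called higher and 1 lower (median log2 fold change 0.29), against 25.4% and 32.9% of all genes. In D2 versus B6, 1 was higher and 10 lower (median -0.54), against 29.8% and 30.3% of all genes. In D2-13B6 versus D2, 5 were higher and 1 lower (median 0.086), against 27.6% and 29.7% of all genes. Tpi1, triose phosphate isomerase, had 404 CPM in B6 and 547 in B6-13D2 (0.44, edgeR adjusted p = 4.89e-09). Gapdh had 2296 and 2582 CPM (0.17, adjusted p = 0.0151), and Pgam1, phosphoglycerate mutase, had 901 and 1025 CPM (0.19, adjusted p = 0.00150). Between D2-13B6 and D2 they were not called, with adjusted p of 0.353, 0.358 and 0.899.

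Among the other enzymes, Pfkm was lower in D2 than in B6 (33.2 against 71.0 CPM, log2 -1.10) and slightly lower in B6-13D2 than in B6 (-0.19, edgeR adjusted p = 0.00236). Aldoc rose from 9.70 CPM in B6 to 32.0 in B6-13D2 (1.72, adjusted p = 5.89e-13). Ldhb had 164 CPM in B6 and 201 in B6-13D2, against 75.6 in D2 and 47.9 in D2-13B6, and was called in all 3 comparisons. The rare isoenzymes Hk3, Pklr and Ldhc stayed at or below 3.37 CPM by group mean. Within these, Hk3 was higher in D2 than in B6 (1.14, adjusted p = 0.000163), and Pklr (-1.01) and Ldhc (-1.98) were lower.

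Glucose and lactate carriers were mostly higher in the congenic lines. Of 8 tested, 6 were called higher and 1 lower in B6-13D2 versus B6 (median 0.66), and 6 higher and 2 lower in D2-13B6 versus D2 (median 0.62). Slc2a1, the glucose transporter GLUT1, had 251 CPM ± 7.33 (SD, n = 3) in B6 and 207 ± 3.17 in D2, against 476 ± 8.89 in B6-13D2 and 278 ± 5.56 in D2-13B6. It rose by 0.92 in B6-13D2 over B6 (edgeR adjusted p = 8.23e-14) and by 0.43 in D2-13B6 over D2 (adjusted p = 4.39e-09). Slc2a3, the transporter GLUT3, which was named after its values were seen, was the most abundant glucose transporter here at 714 to 1633 CPM by group mean and rose by 0.54 and 0.77 in these comparisons. Slc16a3, a lactate exporter, rose by 1.03 and 0.62. Slc2a4 (1.33 and 0.91) and Slc16a7 (-1.75 and -1.22) were rare, at most 1.99 CPM by group mean.

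Neighbouring pathways were counted in the same way, and their counts can be set against the share of all genes called. This share was 25.4% higher and 32.9% lower in B6-13D2 versus B6, and 27.6% higher and 29.7% lower in D2-13B6 versus D2. In D2 versus B6 it was 29.8% higher and 30.3% lower. These shares apply equally to the other lists of enzymes, carriers, hypoxia genes and markers. All 5 genes of serine synthesis, which draws on a glycolytic intermediate, were called higher in B6-13D2 versus B6 (median 0.57). In D2-13B6 versus D2, 2 of them were higher and 2 lower. Of 7 genes of the pentose phosphate pathway, 2 were higher and 1 lower in B6-13D2 versus B6, and 3 higher and 4 lower in D2-13B6 versus D2. Of 13 genes for the entry of pyruvate into mitochondria, 3 were higher and 5 lower in the first of these comparisons, and 5 higher and 2 lower in the second. Pdp2, a phosphatase that activates pyruvate dehydrogenase, had 17.6 CPM in D2 and 35.8 in D2-13B6 (1.02, edgeR adjusted p = 7.33e-11). Among 8 tested regulators of glycolysis, 6 were higher in B6-13D2 than in B6 and 2 were not called (median 0.16), while 2 were higher and 1 lower in D2-13B6 than in D2 (median 0.056). Of 5 tested gluconeogenesis genes, 2 were higher and 2 lower in each of the congenic comparisons, and Fbp1 and Fbp2, which oppose phosphofructokinase, stayed at or below 3.25 CPM by group mean.

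**Figure D4:**
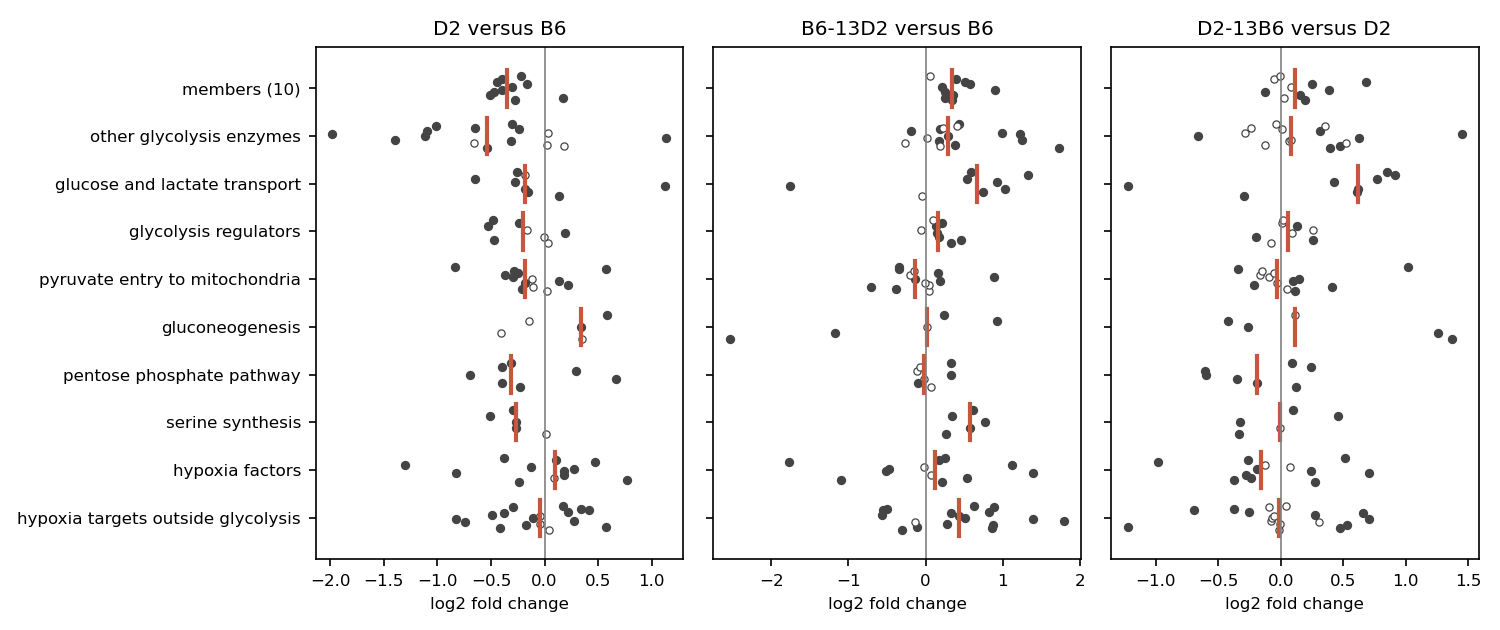
Log2 fold changes (x axis) of the tested genes in each pathway list (rows) in 3 comparisons. Filled circles were called at an edgeR adjusted p under 0.05, open circles were not, and red bars are medians. The members' median is -0.35 in D2 versus B6, 0.35 in B6-13D2 versus B6 and 0.12 in D2-13B6 versus D2.

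Of 12 hypoxia factors, a list that also holds Myc and Mycn, 6 were higher and 4 lower in B6-13D2 versus B6. In D2-13B6 versus D2, 4 were higher and 6 lower, so the list moved in no single direction. Hif1a, the oxygen-regulated subunit of the main hypoxia factor, was lower in B6-13D2 at 146 CPM than in B6 at 202 CPM (-0.47, edgeR adjusted p = 8.33e-10). Its protein is mainly controlled by degradation, which RNA does not measure. Myc, which also drives glycolysis genes, fell from 42.5 to 12.4 CPM (-1.77, adjusted p = 2.34e-14), and it fell from 58.7 in D2 to 29.8 in D2-13B6 (-0.98, adjusted p = 1.54e-11). Arnt2 fell (-1.10) and Hif3a rose (1.12) in B6-13D2 versus B6. Egln3, an oxygen sensor that is itself hypoxia-induced and stands on both hypoxia lists, rose from 19.1 to 50.1 CPM (1.39, adjusted p = 5.51e-12).

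Of 17 hypoxia targets outside glycolysis, 11 were higher and 5 lower in B6-13D2 versus B6, with a median of 0.43. On the D2 background they numbered 5 higher and 4 lower, with a median of -0.011. Ddit4, a stress-induced inhibitor of mTORC1, rose from 41.3 to 143 CPM in B6-13D2 over B6 (1.79, edgeR adjusted p = 1.41e-12) and was not called in D2-13B6 versus D2 (-0.076, adjusted p = 0.433). Bhlhe40 was lower in D2-13B6 than in D2 (-1.23, adjusted p = 2.915e-13).

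Cell type markers differed between the groups along with the glycolysis genes. Markers of pluripotent stem cells were well expressed in all libraries, with Pou5f1 at 532 to 767 CPM by group mean. Summed over 10 markers, they held 0.361% to 0.368% of all counts in D2, 0.464% to 0.470% in D2-13B6, 0.502% to 0.533% in B6 and 0.625% to 0.641% in B6-13D2. Of the 10, 9 were higher and 1 (Klf4) lower in B6-13D2 versus B6, and 1 was higher and 8 lower in D2 versus B6. Between D2-13B6 and D2, 7 were higher and 1 lower.

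Some fibroblast or feeder markers, such as Col1a1, Col1a2 and Vim, were abundant, although the protocol names no feeder cells. Col1a1 alone had 6428 CPM in B6 and 10484 in D2, against 2093 in B6-13D2 and 5227 in D2-13B6. Others on the list were rare, with at most 2.94 CPM for Dcn and 5.26 CPM for Lum by group mean. The sum of the 9 markers ranged from 1.67% to 1.96% of all counts in D2 and 1.08% to 1.18% in B6. It ranged from 0.949% to 0.982% in D2-13B6 and 0.384% to 0.396% in B6-13D2. All 9 were higher in D2 than in B6 (median 0.73) and lower in B6-13D2 than in B6 (median -1.51), and 8 of 9 were lower in D2-13B6 than in D2 (median -0.96). Some of these genes, such as Vim, are also expressed by other cell types. In bulk RNA, fewer cells of a type and less RNA per cell cannot be told apart, and the part of these markers in the glycolysis differences was not tested.

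Other markers were weaker. Primitive endoderm markers summed to 2705 to 2953 CPM in D2, 2090 to 2137 in B6, 1802 to 1817 in D2-13B6 and 1110.1 to 1158 in B6-13D2, and this list includes Sparc and Col4a1, which fibroblasts also make. Its Foxa2 was too low to be tested. Primed epiblast markers summed to 195 to 277 CPM and trophoblast markers to 61.7 to 98.1 CPM over all libraries. Their part in the results was not tested either.

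**Figure D5:**
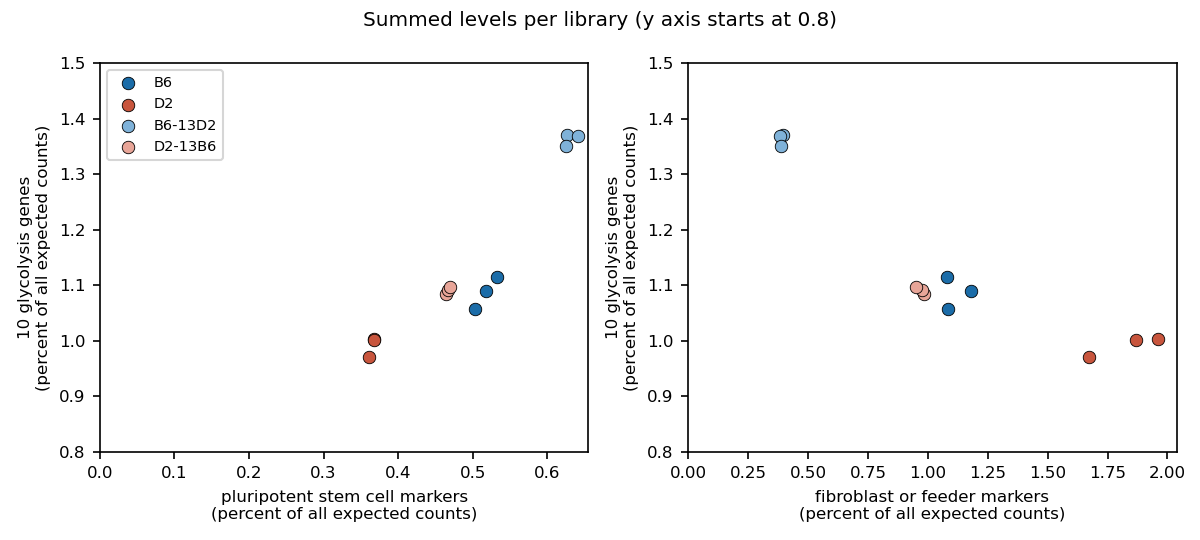
Share of all expected counts held by the 10 glycolysis genes (y axis, from 0.8%) against the share held by pluripotent stem cell markers (left) and by fibroblast or feeder markers (right), with a point per library. B6-13D2 has the highest share of glycolysis genes (1.35% to 1.37%) with the most pluripotency and the least fibroblast signal, and D2 is at the other end.

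Members resembled each other across libraries except for Eno1. Pearson's r of log2 CPM over the 12 libraries, which form 4 groups of 3 and so are not independent, ranged from 0.53 to 0.98 (median 0.89) in the 36 pairs without Eno1. It ranged from -0.14 to 0.57 (median 0.18) in the 9 pairs with Eno1. The gene most like each member among 11377 was Snhg12 for Hk1, Wdr76 for Hk2, Scd1 for Gpi1, Mettl5 for Pfkl, Rab11fip4 for Pfkp, Ano9 for Aldoa, Rnf10 for Eno1, Rps6 for Pkm and Mif for Ldha. Pgk1 was most like an ID without a symbol. These r ranged from 0.97 (Eno1) to 1.00 (Gpi1). Such likeness was common, since 40 genes (Eno1) to 1436 genes (Gpi1) had an r over 0.9 with a member.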

How the data were processed

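RNA of 12 libraries was sequenced as paired reads of 150 bases, per the labels' protocols. The authors deposited expected counts (estimates that can be fractional) by Ensembl gene ID from EMASE, which divides reads between loci, per the file's title. The submitters' processing notes list mm10, Bowtie 1.0.0 and edgeR 3.34.1, with no role given. Annotation release, filters and use of strand in counting are not given in the sources used here. Columns were matched to samples by the sample descriptions (0 columns without a sample). Symbols and positions came from GENCODE M21 (GRCm38), which held 42462 of 43346 IDs. The 884 others held 0.361% of the reads.

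Expected counts were rounded and fitted in R 4.3.3 with edgeR 4.0.16: filterByExpr with a minimum count of 10, TMM, 4 group means over 12 libraries and the quasi-likelihood test. Benjamini-Hochberg adjustment ran over 17148 genes within each of 7 contrasts, and a gene is called at an adjusted p under 0.05. SE was obtained as the size of the log2 fold change over the root of F. CPM use TMM-scaled library sizes, and levels per kilobase use exon length. The fit was tested on simulated data. Isoenzyme ratios were tested with exact permutation tests stratified by background or segment (3 libraries against 3 alone cannot go below 0.1). Within-group pairs of libraries had chi-square values of 1.94 to 7.98 for each degree of freedom over 12 pairs, so no pair agreed within sampling noise and all were counted.

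The members, lists and tests were chosen with earlier results of these data known. All members were named. From the lists, genes were named if called with a log2 fold change of 1 or more in size and no overlap of libraries in D2 versus B6 or in a congenic line against its background strain, plus Tpi1, Gapdh, Pgam1, Pfkm, Slc2a1 and Hif1a; 1 gene under this rule is not reported here. The gene most like a member is the one with the highest Pearson r among tested genes whose mean log2 CPM reaches 2. Alternatives were DESeq2 1.42.0, RLE size factors, no filter, a minimum mean CPM of 1, a log2 fold change of 1 or more in size, the replicate number as a block, rounded counts for the ratios, only the groups compared, and leaving out each library.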

Additional observations from a re-analysis of the deposited data

Results flagged for a closer look

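For 9 members the effect of exchanging the segment differed between the backgrounds by a test of the difference itself, with an edgeR adjusted p under 0.05. Among these, the Hk1 call was lost with the replicate block (edgeR adjusted p = 0.0543) and without any one of several libraries. The log2 differences, congenic lines minus parental lines, were 1.28 for Hk2, 1.20 for Pfkp, 0.83 for Pfkl, 0.53 for Aldoa, 0.51 for Gpi1, 0.35 for Pgk1, 0.30 for Ldha, 0.28 for Eno1 and 0.13 for Hk1. This contrast holds everything that both congenic lines share, and the column prefix, the marker levels and the segments cannot be told apart in it. Of all tested genes, 31.1% were called higher and 33.4% lower in it, a split that turned under RLE size factors, DESeq2 and no filter.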

How the results depend on the processing

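Of 400 comparisons of a member's result with its value under RLE size factors, DESeq2, the filters, the replicate block or only the groups compared, 368 kept direction and side of the threshold, 7 lost the call, 18 gained one and 7 changed sign. Over left-out libraries, 807 of 840 stayed, 19 lost the call, 9 gained one and 5 changed sign. No member called above changed sign under these settings. The sign changes, whose cause was not tested, were those of Hk2 in D2-13B6 versus B6 (0.048 with RLE size factors and DESeq2, 0.012 with no filter, 0.0055 with a minimum mean CPM of 1, 0.059 with only the groups compared, and -0.034 to 0.0073 over left-out libraries). Pkm in D2-13B6 versus D2 (0.012 with no filter, and -0.017 to 0.00078 over left-out libraries, the highest without D2 replicate 1) and Eno1 in D2-13B6 versus D2 (-0.010 with a minimum mean CPM of 1) changed too. The background difference of Hk2 to Hk1 (0.015) ranged from -0.0092 to 0.034 over left-out libraries.

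Most differences were small. With a log2 fold change of 1 or more in size, genes called were 1937 in D2 versus B6, 2478 in B6-13D2 versus B6, 1537 in D2-13B6 versus D2, 4821 in B6-13D2 versus D2, 1994 in D2-13B6 versus B6, 405 for the segment allele and 4392 for congenic minus parental lines. Members called were then 1 (Hk2) in B6-13D2 versus D2, 2 (Hk2 and Pfkp) for congenic minus parental lines and 0 in the other 5. Over left-out libraries, members called ranged from 5 to 7 in D2-13B6 versus D2, from 7 to 8 in D2-13B6 versus B6, from 7 to 9 for the segment allele, from 8 to 9 for congenic minus parental lines and from 9 to 10 in B6-13D2 versus B6 and against D2.

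With the replicate block, the 1 member's call that changed was Hk1 in congenic minus parental lines (0.13, adjusted p = 0.0543). Same-numbered libraries did not deviate together (r from -0.11 to 0.065 over 18 pairs), so the numbers give no pairing. The lowest member had 2227 expected counts in its lowest library.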
